A study of Homo sapiens with 6 samples.

Results

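This account covers 10 genes of phosphate handling in cells labelled SKM-1, the name of an established human line of acute myeloid leukaemia. Marker genes, given with their values further on, put that identity in doubt: erythroid and keratin genes were high and several myeloid genes were near 0. The cells had been given celastrol or the solvent DMSO for 48 h. The genes are the phosphate importers SLC20A1 and SLC20A2, the phosphate exporter XPR1, and SLC37A1 to SLC37A4 of the sugar-phosphate exchanger family. The others are the inorganic pyrophosphatases PPA1 and PPA2 and the ectoenzyme ENPP1. All 10 were found by symbol among the 58735 genes of the deposited table. SLC20A1 was chosen because its increase with celastrol was among the largest in these libraries, so its values are a description and carry no test. The other 9 were taken by function, but with earlier results of these data known. Celastrol is a triterpenoid from the thunder god vine, Tripterygium wilfordii, and no dose is stated in the labels. Each treatment had 3 RNA sequencing libraries, and both groups were the same unmodified cell line in the same medium. Nothing says that the libraries came from separate cultures, so p-values reflect library-to-library spread alone, and that spread may be technical.

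Inorganic phosphate enters most cells together with sodium through SLC20A1 and SLC20A2, which also serve as receptors for some gammaretroviruses. XPR1, named as a receptor for other retroviruses, carries phosphate out, and inositol pyrophosphates that bind its SPX domain promote that export. Inside the cell, biosynthetic reactions release pyrophosphate, which PPA1 in the cytosol and PPA2 in mitochondria split into phosphate. Outside the cell, ENPP1 makes pyrophosphate from ATP.

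Both the main importer and the exporter had higher transcript levels with celastrol. SLC20A1 averaged 5.10-fold more FPKM (fragments counted per unit of gene length and of library size) with celastrol than with DMSO. XPR1 rose by a smaller amount, 1.34-fold, and SLC20A2 by 1.26-fold. The cytosolic pyrophosphatase PPA1 fell, to a level 1.78-fold lower than with DMSO. The mitochondrial PPA2 and the SLC37 family members SLC37A3 and SLC37A4 differed by less than their spread. SLC37A1, SLC37A2 and ENPP1 averaged under 1 FPKM and were not tested.

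The stretches of DNA before SLC20A1 and XPR1 are shown, whose transcripts were higher in all 3 celastrol libraries. That also held for SLC20A2, which was not matched to a promoter, and for ENPP1, with at most 5 reads in a library. Both stretches come from the RefSeq promoter table (GRCh38.p14), in which 6 of the 10 genes were matched. Each runs 5′ to 3′ on the plus strand up to the base before the gene's start in the deposited table. A set of 7 motifs, chosen after these sequences had been read, was searched on both strands, and capitals mark the matches.
SLC20A1, chr2:112645689-112645856: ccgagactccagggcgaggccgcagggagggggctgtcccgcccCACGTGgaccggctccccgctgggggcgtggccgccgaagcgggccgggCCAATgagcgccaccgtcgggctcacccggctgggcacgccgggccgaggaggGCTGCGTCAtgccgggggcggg
XPR1, chr1:180631772-180632003: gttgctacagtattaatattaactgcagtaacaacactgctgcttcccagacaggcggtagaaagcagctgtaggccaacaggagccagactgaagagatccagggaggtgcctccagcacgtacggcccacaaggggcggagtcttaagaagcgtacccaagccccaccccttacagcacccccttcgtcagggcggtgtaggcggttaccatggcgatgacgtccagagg

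RefSeq placed the start of SLC20A1 82 bases, and that of XPR1 18 bases, downstream of the gene's start used here. The bases between were not searched. The other promoters were cut at the same distance before their own RefSeq starts. The SLC20A1 stretch of 168 bases held 3 matches, none overlapping another. An E-box, CACGTG, began 124 bases before the gene's start, and 3.45% of 35116 promoters held one in the same stretch. A CCAAT box, CCAAT, began 75 bases before the start, and 21.7% of promoters held one. The letters of the antioxidant response element core, TGACNNNGC, lay on the minus strand 22 bases before the start, and 6.60% of promoters held them. The other motifs searched were the cyclic AMP response element TGACGTCA, the AP-1 site TGANTCA, the ATF4 element TGATGNAA and the heat shock pair GAANNTTC, and their letters were not in this window. The XPR1 stretch of 232 bases held none of the 7. The SLC20A1 stretch was 80.4% G and C, above 96.9% of promoters, whereas the XPR1 stretch was 56.9%, near the promoter median of 57.8%. These matches are letters in a window and were not tested for binding.

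SLC20A1 (chromosome 2, 112645857 to 112663827, GRCh38) lay at 131, 165 and 163 FPKM in celastrol replicates 1 to 3, from 11516, 15304 and 15330 reads. In DMSO replicates 1 to 3 it lay at 30.3, 29.9 and 29.8 FPKM, from 2432, 2247 and 2474 reads. The DMSO libraries were nearly equal and the celastrol libraries were all far above them, with replicate 1 the lowest of the 3. The means were 153 ± 19.4 and 30.0 ± 0.240 FPKM (SD, n = 3 each), and the log2 fold change was 2.34 (SE 0.10). This was the 31st largest increase among the 12685 genes with a mean of at least 1 FPKM, and the 11th among the 10072 protein-coding ones. By level, SLC20A1 moved from rank 1459 of 19951 protein-coding genes with DMSO to rank 157 with celastrol. Its 3 annotated pseudogenes, SLC20A1P1, SLC20A1P2 and SLC20A1P3, had 0 reads in all 6 libraries, and no other annotated gene overlaps it.

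SLC20A2 (chromosome 8, 42416475 to 42541926), the second importer, lay at 6.74, 7.76 and 7.37 FPKM in celastrol replicates 1 to 3 and at 5.75, 5.68 and 5.92 FPKM in DMSO replicates 1 to 3. The groups did not overlap, and the smallest gap was between celastrol replicate 1 and DMSO replicate 3. Its log2 fold change was 0.33 (SE 0.08; limma adjusted p = 0.0197), but the call was lost when celastrol replicate 2, celastrol replicate 3 or DMSO replicate 3 was left out (adjusted p up to 0.0877). Of its exonic bases, 3.99% are shared with SMIM19 on the opposite strand, and the labels do not say whether strand was kept. SMIM19 averaged 5.23 FPKM with celastrol and 4.33 with DMSO. SLC20A1 supplied 95.1% to 95.7% of the summed FPKM of the importers in the celastrol libraries and 83.5% to 84.0% in the DMSO libraries.

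XPR1 (chromosome 1, 180632004 to 180890251) lay at 24.8, 24.8 and 24.7 FPKM in celastrol replicates 1 to 3, from 3480, 3662 and 3703 reads. In DMSO replicates 1 to 3 it lay at 17.6, 18.9 and 18.9 FPKM, from 2257, 2263 and 2503 reads. Relative to their mean, the celastrol libraries were closer to each other than those of any other of the 10 genes (SD 0.0942% of the mean). Every celastrol library was above every DMSO library. The log2 fold change was 0.42 (SE 0.06; limma adjusted p = 0.00337), and it kept its call in all 17 alternatives (adjusted p up to 0.0209).

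**Figure D1:**
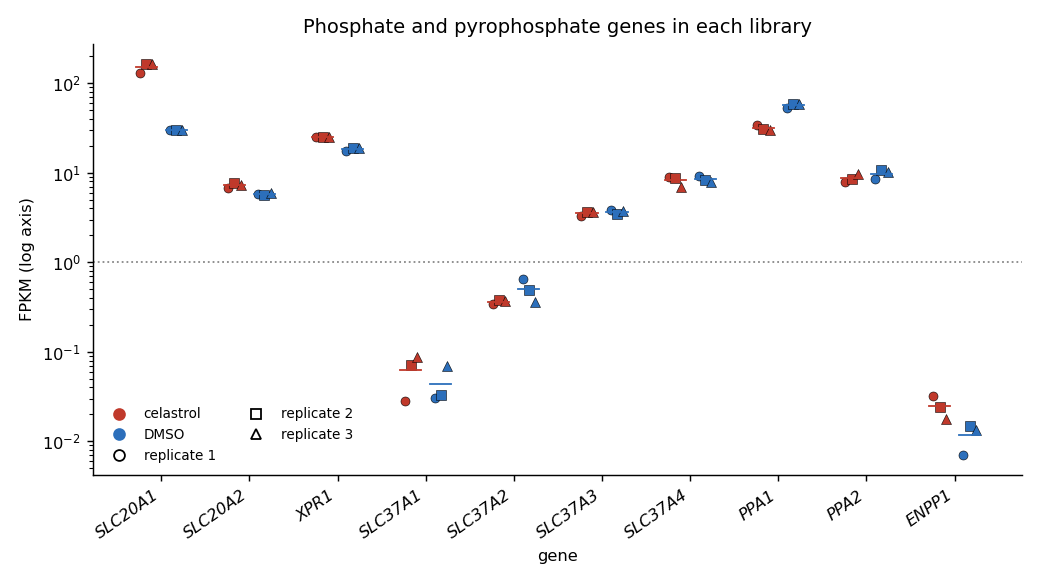
FPKM of the 10 genes in each library on a log axis, with celastrol in red, DMSO in blue, a marker shape for each replicate number and a bar at each group mean; the dotted line is the minimum mean of 1 FPKM for testing. SLC20A1 lies at 131 to 165 FPKM with celastrol and at 29.8 to 30.3 with DMSO, PPA1 is the gene that is lower with celastrol in all libraries, and SLC37A1, SLC37A2 and ENPP1 lie below the line.

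Ratios between genes within a library do not depend on how libraries were scaled. The ratio of SLC20A1 to XPR1, the importer against the exporter by transcript, was 5.28, 6.67 and 6.61 in celastrol replicates 1 to 3 and 1.72, 1.59 and 1.58 in DMSO replicates 1 to 3. SLC20A1 to SLC20A2 was 21.0 ± 1.41 in the celastrol libraries and 5.19 ± 0.128 in the DMSO libraries (SD, n = 3). Since SLC20A1 was chosen for its increase, both ratios are descriptions. SLC20A2 to XPR1, which leaves SLC20A1 out, was 0.272, 0.313 and 0.298 with celastrol and 0.327, 0.301 and 0.313 with DMSO. Those groups overlapped, so any difference between the smaller increases of SLC20A2 and XPR1 was within the spread of the libraries.

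**Figure D2:**
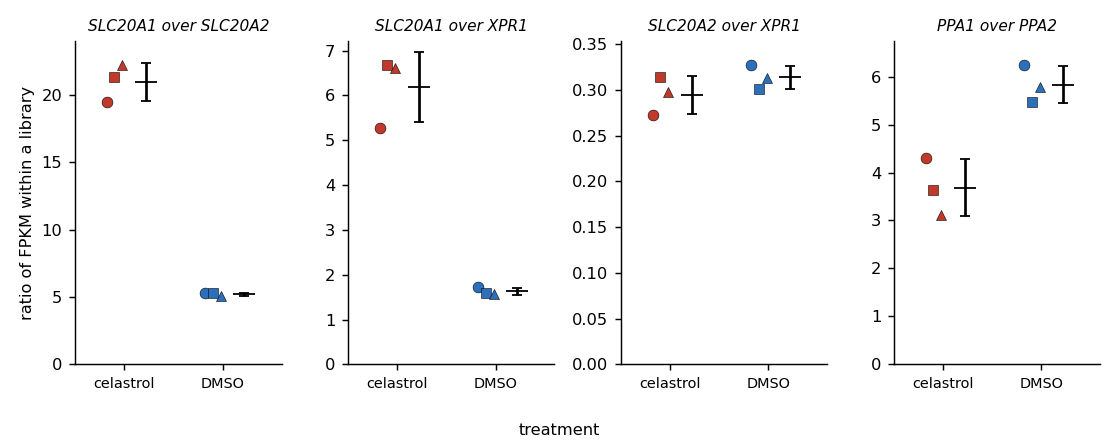
Ratios of FPKM between pairs of genes within each library, as points by replicate, with the mean and SD of each treatment (n = 3) as a dash with bars; every axis starts at 0. SLC20A1 over XPR1 is 5.28 to 6.67 with celastrol and 1.58 to 1.72 with DMSO, SLC20A2 over XPR1 overlaps between treatments, and PPA1 over PPA2 is lower in every celastrol library.

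The SLC37 family is named for exchange of sugar phosphates for inorganic phosphate across internal membranes, which need not hold for every member. SLC37A4 (chromosome 11, 119024114 to 119030906) brings glucose-6-phosphate into the endoplasmic reticulum, and lay at 8.85, 8.81 and 6.93 FPKM with celastrol and at 9.20, 8.38 and 7.79 with DMSO. Replicate 3 was the lowest of each treatment and the groups overlapped. The log2 fold change was -0.05, with a limma 95% interval from -0.32 to 0.22 (adjusted p = 0.778). The gene shares 544 exonic bases, 8.79% of its own, with TRAPPC4 on the opposite strand, whose mean was 13.0 FPKM in the celastrol libraries and 12.04 in the DMSO libraries.

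SLC37A3 (chromosome 7, 140293693 to 140404433), a lysosomal member that works with the protein ATRAID, lay at 3.32, 3.63 and 3.68 FPKM with celastrol and at 3.86, 3.47 and 3.70 with DMSO. These groups also overlapped, and the log2 fold change was -0.05, with a 95% interval from -0.27 to 0.16 (limma adjusted p = 0.698). SLC37A2 (chromosome 11, 125063067 to 125090312) was low, at 0.338, 0.378 and 0.373 FPKM with celastrol and 0.654, 0.490 and 0.359 with DMSO. Its reads summed to 114 with celastrol and 136 with DMSO, a ratio of 0.728 after scaling to library size, with an exact 95% counting interval from 0.562 to 0.941. Celastrol replicates 2 and 3 were nevertheless above DMSO replicate 3, so the difference was within the spread of the libraries. SLC37A1 (chromosome 21, 42496008 to 42581440) had 3 to 10 reads per library, or 0.0279 to 0.0873 FPKM, and its groups overlapped. The SLC37 sum was 11.1 to 12.9 FPKM with celastrol and 11.9 to 13.7 with DMSO, and SLC37A4 made up 62.6% to 70.6% of it over the 6 libraries.

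PPA1 (chromosome 10, 70202830 to 70233911) was the most abundant of the 10 genes with DMSO. It lay at 34.3, 31.0 and 30.2 FPKM in celastrol replicates 1 to 3, from 2798, 2664 and 2626 reads. In DMSO replicates 1 to 3 it lay at 52.4, 58.8 and 58.5 FPKM, from 3901, 4092 and 4498 reads. All celastrol libraries were below all DMSO libraries, with no value between 34.3 and 52.4 FPKM. The log2 fold change was -0.83 (SE 0.08; limma adjusted p = 0.000554), and the gene kept its call in all 17 alternatives (adjusted p up to 0.00511).

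PPA2 (chromosome 4, 105369077 to 105474081) lay at 7.97, 8.51 and 9.70 FPKM with celastrol and at 8.40, 10.7 and 10.1 with DMSO. The groups overlapped, and the log2 fold change was -0.16, with a 95% interval from -0.42 to 0.11 (limma adjusted p = 0.338). The ratio of PPA1 to PPA2 was 4.30, 3.64 and 3.11 with celastrol and 6.24, 5.47 and 5.78 with DMSO. The cytosolic form was 75.7% to 81.1% of the pyrophosphatase FPKM with celastrol and 84.5% to 86.2% with DMSO. The ratio was lower in all 3 celastrol libraries, and an exact permutation test of 3 against 3 libraries, two-sided, can give no p below 0.1. ENPP1 (chromosome 6, 131808016 to 131895155) had 5, 4 and 3 reads with celastrol and 1, 2 and 2 with DMSO. The ratio of its summed reads was 2.08, with an exact (Clopper-Pearson) 95% counting interval from 0.683 to 7.55, so a difference was not detectable at this depth. That interval covers counting error only.

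**Figure D3:**
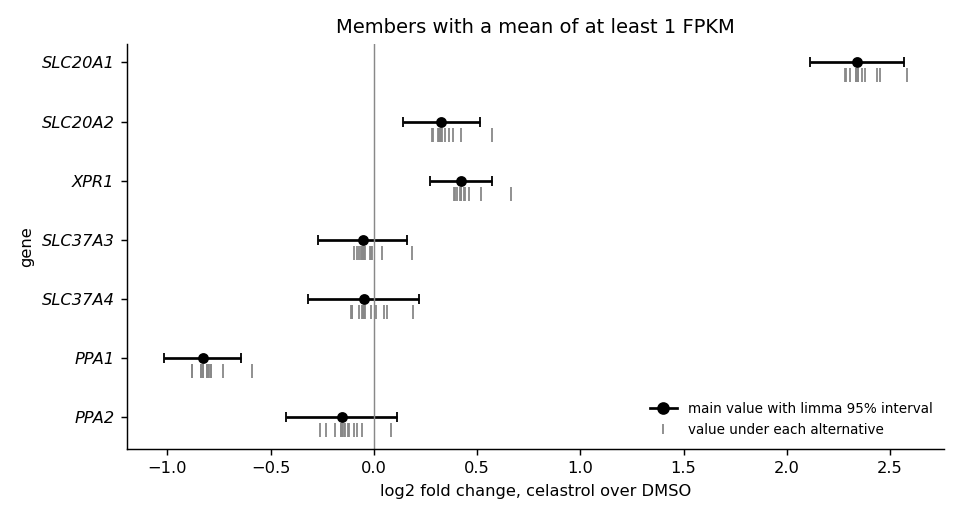
Log2 fold change of celastrol over DMSO for the 7 genes with a mean of at least 1 FPKM, as black points with limma 95% intervals, and below each point the value under every alternative processing as a grey tick. SLC20A1 lies at 2.34, and since it was chosen for its increase, its interval is a description and no test. XPR1 and SLC20A2 lie above 0 and PPA1 lies below 0 under all alternatives. The ticks of SLC37A3, SLC37A4 and PPA2 fall on both sides of 0.

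Of the 9 genes other than SLC20A1, 6 had a mean of at least 1 FPKM and were tested, and 3 were called, XPR1 and SLC20A2 higher and PPA1 lower. Over all 12685 genes tested, 29.5% were called, 15.3% higher and 14.2% lower, and the groups did not overlap for 47.3% (25.3% with celastrol higher and 22% with it lower). The median log2 fold change was -0.05 over these 6 genes and 0.02 over all genes tested. Nothing is read from the count, since the genes were chosen with results of this comparison known. The calls over all genes fell from 1947 higher and 1797 lower to 1119 and 1137 without celastrol replicate 2, to 1211 and 1284 without celastrol replicate 3 and to 1140 and 1003 without DMSO replicate 3. Rescaling to TPM moved the median of all genes tested to 0.26, and the share of calls that were higher from 52.0% to 86.6%. Scaling to the reads listed in the table moved them to 0.12 and 70.0%. Against those medians, XPR1 was at 0.66 and SLC20A2 at 0.57 under TPM, and PPA1 at -0.59.

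The order of the 10 levels, which FPKM allows since it is per length, was led by PPA1 and SLC20A1 with DMSO and by SLC20A1 and PPA1 with celastrol. With DMSO PPA1 was 1.88 times SLC20A1, and with celastrol SLC20A1 was 4.81 times PPA1. XPR1 and then PPA2 came next in both treatments. With celastrol the ranges of PPA2 and SLC37A4, and of SLC37A4 and SLC20A2, overlapped, so the order among these neighbours was not resolved; with DMSO this held for PPA2 and SLC37A4 alone among the genes above 1 FPKM. Below them came SLC37A3, followed by SLC37A2, SLC37A1 and ENPP1; with celastrol the ranges of SLC37A1 and ENPP1 overlapped, so their order was not resolved either. The summed FPKM of the 10 genes was 217 to 250 with celastrol and 128 to 136 with DMSO, and without SLC20A1 it was 83.1 to 86.3 with celastrol and 97.9 to 106 with DMSO.

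The reads listed by gene, recovered from FPKM and gene length, summed to 13549187 to 16231066 per library. Of 11 myeloid and leukocyte markers 6 averaged at least 1 FPKM over the 6 libraries, among them SPN, PTPRC and LYZ, whereas CEBPA, CSF1R, CD14, ANPEP and the granule enzyme MPO were under 1 FPKM. All 8 erythroid markers were above it, RHAG and GATA1 the highest. These levels do not match the myeloid label, and every value here is that of the cells so labelled. The summed FPKM of the erythroid list was 428 to 468 with celastrol and 497 to 506 with DMSO, and that of the myeloid list 109 to 115 and 123 to 139. For the lymphoid list it was 15.4 to 16.0 and 8.42 to 10.4, with MS4A1 at 0 in all libraries, and for the epithelial and stromal list, whose KRT8, KRT18 and KRT19 were high, 295 to 330 and 266 to 304. Mitochondrial genes took 1.37% to 1.85% of the listed reads with celastrol and 5.44% to 5.65% with DMSO. The part of these shifts in the changes of SLC20A1, SLC20A2, XPR1 and PPA1 was not tested. In a bulk sample fewer cells of a type and less RNA per cell cannot be told apart.

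Other genes of phosphate handling were 69 genes in 6 lists chosen by function, of which 27 were tested. Of these, 6 were called higher, 4 lower and 17 not called, beside 15.3% of all genes tested called higher and 14.2% lower. Their median log2 fold change was -0.05, and nothing is read from these counts or from those of the single lists below, which stand beside the same shares. Among 12 other phosphate transporters 5 were tested. SLC25A3, the mitochondrial phosphate carrier, was lower, at 50.2, 45.1 and 48.3 FPKM with celastrol and 68.7, 68.5 and 69.9 with DMSO (log2 fold change -0.53, SE 0.07, limma adjusted p = 0.00155). SLC25A25, an exchanger of adenine nucleotides for phosphate, was lower by 1.43-fold, a call lost without DMSO replicate 3 (limma adjusted p = 0.0524) and under TPM (0.0680). SLC25A10, which exchanges dicarboxylates for phosphate, was 1.48-fold higher. SLC25A24, a relative of SLC25A25, was 1.30-fold higher, but its call was lost when low genes were kept in, and when any library but DMSO replicate 2 was left out (limma adjusted p up to 0.0909). The sodium-phosphate transporters of kidney and gut, SLC34A1 and SLC34A2, and the 4 SLC17 genes each had reads in at most 1 library. SLC34A3, the third of the SLC34 genes, had a mean of 0.572 FPKM in the celastrol libraries and 0.910 in the DMSO libraries, and its groups overlapped.

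The next list held enzymes that make or remove inositol pyrophosphates, the ligands of XPR1, and KIDINS220, a partner protein of XPR1. Of its 14 genes, 10 were tested and 1 was called (29.5% of all genes tested), IP6K1, at 13.6, 13.2 and 13.0 FPKM with celastrol and 11.8, 10.3 and 11.2 with DMSO (log2 fold change 0.26, limma adjusted p = 0.0369). IP6K1 lost that call in 8 of 17 alternatives, the replicate block and 5 of the 6 left-out libraries among them (highest adjusted p = 0.111). NUDT4, the most abundant member, which removes the added phosphate, averaged 26.0 ± 0.912 and 24.8 ± 2.69 FPKM, with groups that overlapped (log2 fold change 0.07, limma adjusted p = 0.576, and 0.0359 under TPM). It has near-identical copies that can share its reads. Single alternatives called others of the list: PPIP5K1 lower under limma-voom, PPIP5K1 and IP6K2 lower and PPIP5K2 higher without DMSO replicate 2, and IPMK, PPIP5K2 and NUDT3 higher under TPM. KIDINS220, named like these genes after its values were seen, averaged 8.98 ± 0.367 and 9.24 ± 0.530 FPKM, and its groups overlapped too (log2 fold change -0.04, 95% interval -0.22 to 0.14).

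**Figure D4:**
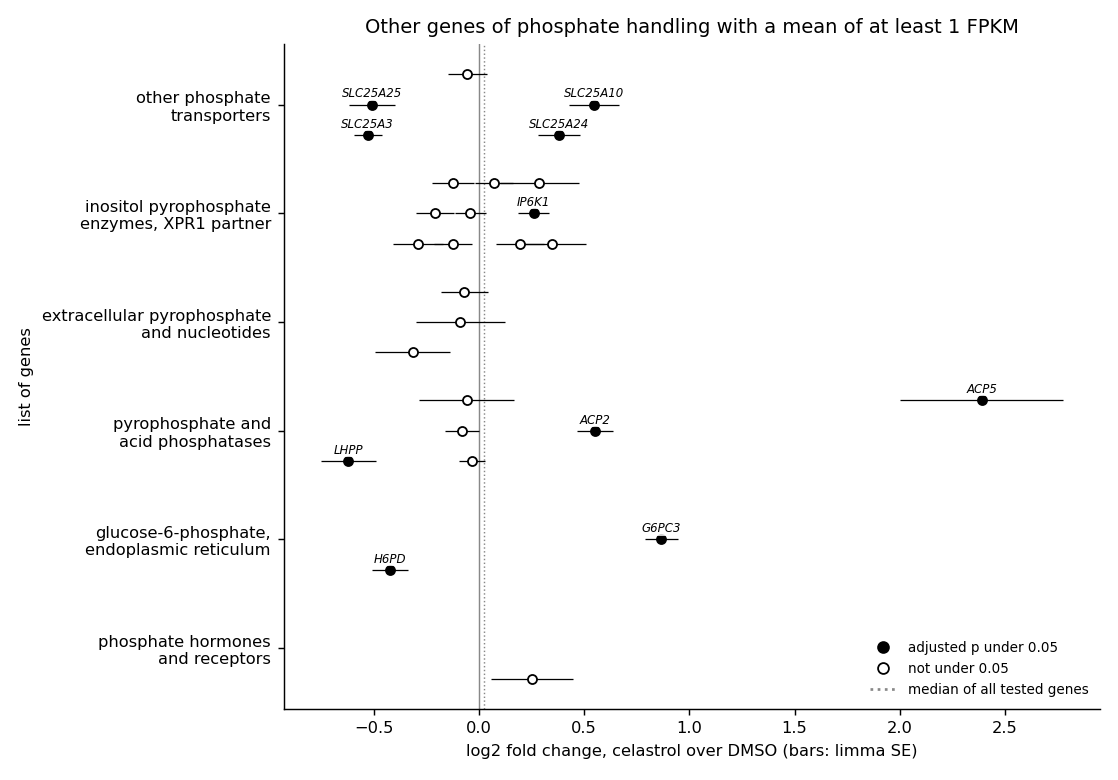
Log2 fold change of celastrol over DMSO for the 27 tested genes of the 6 related lists, with limma SE as bars; filled points had an adjusted p under 0.05 and are named, and the dotted line is the median of all genes tested, 0.02. ACP5 lies farthest to the right at 2.39 with the widest bar, G6PC3 lies at 0.87, and called genes lie on both sides of 0.

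The largest change among the related genes was that of ACP5. Of 10 pyrophosphate, polyphosphate and acid phosphatases 6 were tested, with 2 higher and 1 lower, beside 15.3% and 14.2% of all genes tested. ACP5, tartrate-resistant acid phosphatase, which was known from earlier results of these data to be higher, had 130, 258 and 484 reads in celastrol replicates 1 to 3 and 36, 35 and 46 in DMSO replicates 1 to 3 (log2 fold change 2.39, SE 0.39, limma adjusted p = 0.00421). Since that increase was known when the list was made, this p-value adds no independent support. Relative to their mean, the celastrol libraries of ACP5 differed among themselves by more than those of any other called gene named here (SD 59.4% of the mean). ACP2, lysosomal acid phosphatase, was at 6.80, 7.64 and 6.98 FPKM with celastrol and 5.20, 4.78 and 4.56 with DMSO (log2 fold change 0.55, SE 0.09, limma adjusted p = 0.00379). LHPP, a phosphatase that also splits pyrophosphate, was 1.56-fold lower, a call lost without DMSO replicate 3 (limma adjusted p = 0.0507). ACP1, the low molecular weight phosphatase, had means of 25.6 FPKM in the celastrol libraries and 27.0 in the DMSO libraries, and its groups overlapped.

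The enzymes that use the glucose-6-phosphate carried by SLC37A4 went in opposite directions. G6PC3, the widely expressed glucose-6-phosphatase, was at 13.6, 12.9 and 14.3 FPKM with celastrol and 7.78, 6.92 and 7.55 with DMSO (log2 fold change 0.87, SE 0.08, limma adjusted p = 0.000425). H6PD, which oxidises glucose-6-phosphate inside the endoplasmic reticulum, was at 5.35, 5.66 and 5.15 FPKM with celastrol and 7.68, 6.64 and 7.43 with DMSO (log2 fold change -0.42, SE 0.09, limma adjusted p = 0.0101), a call lost under TPM (0.122). The other 2 genes of this list, G6PC and G6PC2, were under 1 FPKM. Both tested genes had groups that did not overlap, while SLC37A4 itself had overlapping groups.

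Of 16 genes for extracellular pyrophosphate and nucleotides 3 were tested and none was called by limma-trend. ANKH, a membrane protein of ATP and pyrophosphate release named after its values were seen, was at 1.21, 1.15 and 1.24 FPKM with celastrol and 1.56, 1.54 and 1.46 with DMSO. Its groups did not overlap (log2 fold change -0.31, limma adjusted p = 0.219), and limma-voom on recovered reads called it lower. ENPP3, a relative of ENPP1, averaged 8.57 ± 1.26 FPKM in the celastrol libraries and 8.94 ± 0.572 in those with DMSO, and its groups overlapped. ENPP1 itself reached at most 0.0318 FPKM. Of 13 phosphate hormones and receptors only the vitamin D receptor VDR was tested, at 1.81 ± 0.340 and 1.49 ± 0.182 FPKM, and it was not called (log2 fold change 0.25, limma adjusted p = 0.358).

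The 5 protein-coding genes whose log2 values followed SLC20A1 most closely over the 6 libraries were CCNB1, CEMIP2, TMEM158, ARPC2 and GPAT3, with Pearson r from 0.998 to 0.999 among 6980 genes with a mean of at least 5 FPKM. These 6 points share their treatments, and 449 genes had r above 0.95. The size of the step differed: TMEM158 was 5.08-fold higher, GPAT3 3.47-fold, CEMIP2 2.60-fold, ARPC2 1.56-fold and CCNB1 1.23-fold.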

How the data were processed

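RNA was sequenced from SKM-1 cells after 48 h with celastrol (3 libraries) or DMSO (3 libraries), grouped by sample title. The deposited values are FPKM per gene, made with HISAT2 2.0.5 and featureCounts 1.5.0-p3 on GRCh38, per the submitters' processing notes. Nothing states the settings, the strand or how library totals were set. Multiplying FPKM by gene length gave whole reads, after 1 scaling step in each library, for 100% of nonzero values (tolerance 0.001 read). The total divided by was 1.04 to 1.05 times the listed reads with celastrol and 0.963 to 0.994 with DMSO. All 58735 gene identifiers and positions matched GENCODE release 29.

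Tests used limma 3.58.1 (R 4.3.3): limma-trend, two-sided, on log2(FPKM + 0.1), so folds of low genes are understated, for genes with a mean of at least 1 FPKM, with Benjamini-Hochberg adjustment over all 12685 genes and a threshold of 0.05. Folds and means with SD are of FPKM itself. The steps were tested on simulated data. Genes, lists and alternatives were chosen with earlier results of these data known. Named are the 10 genes; of each related list up to 4 called genes of largest change and the most abundant one; and the 5 genes most like SLC20A1. No pair of libraries within a treatment agreed within sampling noise (chi-square per gene 4.01 to 13.4).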

Additional observations from a re-analysis of the deposited data

How the results depend on the processing

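Settings tried were pseudocounts of 1 and 0.01, no filter or a mean of at least 5 FPKM, TPM, listed reads, quantile normalization, limma-voom on recovered reads, protein-coding genes alone, the replicate block, each library left out and, added after seeing the data, scaling to nuclear reads. XPR1 and PPA1 kept their direction and call in all 17, and SLC20A1 its direction. None of the called genes among the 10 and the named related genes changed direction. The 5 genes most like SLC20A1 also kept their direction in all 17, and marker genes were not followed through the alternatives. SLC37A3 was above 0 under TPM and listed reads, SLC37A4 under both and without celastrol replicate 3 or DMSO replicate 1, and PPA2 under TPM; none passed the threshold there. Under TPM there were 5266 higher and 813 lower genes, and 11 related genes higher and 2 lower; under listed reads 3024 genes were higher. With libraries left out, the ranges were 1119 to 1948 higher and 1003 to 1766 lower genes, 1 to 2 of the 9 genes higher and 1 lower in each, and 4 to 6 related genes higher and 2 to 6 lower. With the replicate block there were 1776 higher and 1617 lower genes; replicate numbers did not pair the libraries (correlations of deviations -0.03 to 0.03 for equal numbers), and the block ended the call of IP6K1 (adjusted p = 0.0569) and of no other of the 10 or the named related genes. Depth limits ENPP1 and SLC37A1, with at most 10 reads in a library.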
